A study of Mus musculus with 4 samples.

Results

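The genes described here encode the heat shock proteins, their J-domain partners, the Bag co-chaperones and the heat shock factor Hsf2 in mouse CH10T1/2 fibroblasts. They are the genes whose symbol in the platform annotation begins with Hspa, Hspb, Hspd, Hspe, Hsph, Hsp90, Dnaja, Dnajb or Dnajc and a number, or is Bag1 to Bag6, Hsf1 or Hsf2. The rule found 67 of the 12393 genes with a probe set of their own, through 129 probe sets. A further 2 probe sets, which name Dnajc19 together with a pseudogene, were left out, and Hsf1 and Hsp90ab1 were not analysed here.

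The 4 arrays were of the Affymetrix design Mouse Genome 430A 2.0, with 1 array per group and so no replicates. CH10T1/2 is an embryonic fibroblast line, stably transfected here with the wild type PTHR1, the receptor of parathyroid hormone and PTHrP (the WT line), or with its R150C variant, found in enchondromas, which are benign cartilage tumours (the R150C line). Each line was kept overnight without serum and then given PTHrP at 1e-07 M, or carrier, for 1 h. The labels of the WT control array name only the wild type PTHR1 and no treatment. Its carrier treatment is taken from the series text. Each receptor is represented by 1 transfected line, so receptor and line cannot be told apart, and all 4 groups share the serum-free night.

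Heat shock proteins keep other proteins folded. Hsp70 proteins bind and release unfolded stretches in a cycle driven by ATP, which J-domain proteins start by stimulating ATP hydrolysis and which nucleotide exchange factors, among them the Bag proteins and the Hsp110 group, finish by ejecting ADP. Hsp90 takes over late folding of kinases and receptors, the Hspd1 and Hspe1 chamber folds proteins inside mitochondria, and small heat shock proteins hold unfolded chains without ATP. Hsf1 and its relatives switch on the stress-inducible members by binding heat shock elements, which are inverted GAA units in promoters.

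The deposited value of a probe set, called signal, is its fluorescence intensity in linear units. The mean signal after trimming 2% at each end was 150.1 in every array. Differences below are on the log2(signal + 16) scale, which understates the change of dim genes, with each array centred on the median of the kept genes. The brightest probe set stands for a gene, and a gene was kept where its mean over the 4 arrays reached the median of all genes, which corresponds to a signal of 62.6. By this filter 48 members were kept and 19 were not. Effects common to both media or both lines were tested with limma in an additive model on all 6197 kept genes, with Benjamini-Hochberg adjustment at 0.05. The error of a gene rests on 1 residual degree of freedom, its departure from the additive model, and on a prior of 9.7 drawn from all kept genes. The p-values therefore measure only the spread between these arrays, and no spread between replicates. A difference between a pair of arrays had a spread of 0.25 (SD, log2), estimated from how far the kept genes departed from the additive model.

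Of the fibroblast markers 9 of 11 were kept, with Col1a1 between 4440.1 and 6197.4 and Vim between 7884.8 and 10659.2, while Lum and Dcn were dim. Of the markers of other cells, 2 of 7 leukocyte genes (Cd14, Csf1r), 1 of 6 epithelial genes (Krt8) and 0 of 6 in each of the endothelial and neuronal lists were kept. The summed signal ran from 272.4 to 333.5 for leukocyte markers, from 135.8 to 194.1 for epithelial, from 115.8 to 171.4 for endothelial and from 82.3 to 95.7 for neuronal markers. Ptprc stayed at or under 16.3, Pecam1 at or under 18.7, Epcam at or under 3.5 and Snap25 at or under 6.3. The Pth1r probe set read between 3.2 and 3.9 and need not detect the transfected cDNA.

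The comparison of the lines asked which chaperone transcripts differ between cells with the variant and cells with the normal receptor. Dnajb4, Bag3 and Dnajc21 were higher in R150C cells, and Hspa1b and Dnajc30 were lower, each by 1.47-fold to 1.85-fold over both media. The other 43 kept members did not pass the test. The 5 called members are 10.4% of the 48, beside 9.70% of all kept genes, so the share called after adjustment was near the background. The same 5 passed under all 4 scalings tried, as did 7.99% of all kept genes. Higher calls made up 5.52% and lower calls 4.18% of all kept genes, beside 6.25% and 4.17% of the members. At an unadjusted limma p under 0.05 the share of members was lower, 9 of 48 (18.8%), beside 25.5% of all kept genes. The median difference over both media was -0.05 for the members and -0.06 for all kept genes, and the SD was 0.31 and 0.40. Without the filter on dim genes limma called 0 of the 67 members (10 at an unadjusted p under 0.05, or 14.9%, beside 14.4% of all genes) and 33 of 12393 genes, with the adjusted p of the 5 genes between 0.168 and 0.254.

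**Figure D1:**
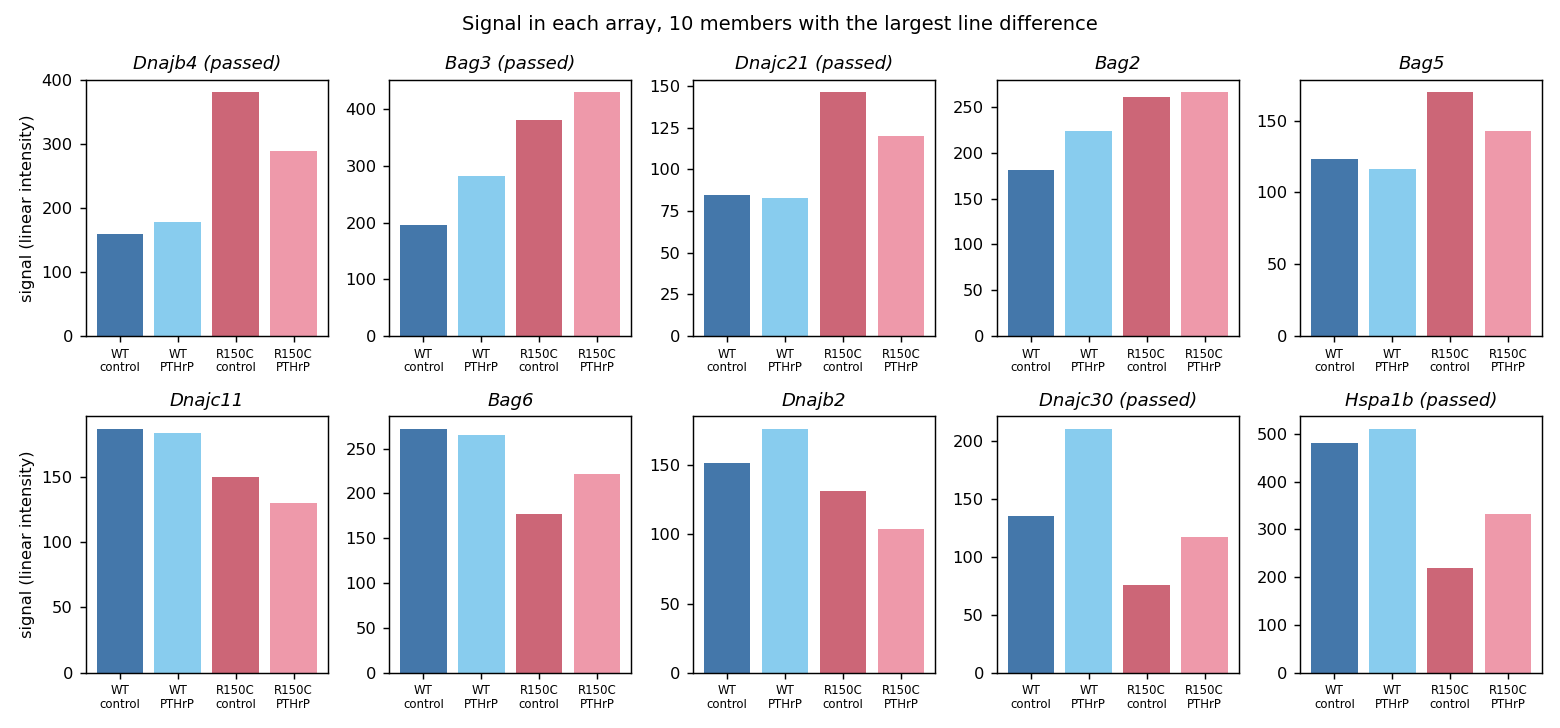
Signal (linear intensity, axis from 0) in each of the 4 arrays for the 10 kept members with the largest fitted line difference, 1 bar per array and no replicates; "passed" marks limma's adjusted p under 0.05. In the 5 members that passed, both R150C bars lie on the same side of both WT bars, as for Dnajb4 (381.8 and 289.5 against 159.5 and 178.1). The test itself favours such separation.

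Dnajb4, a cytosolic J-domain protein that delivers substrates to Hsp70, read 159.5 in the WT control array, 178.1 in WT with PTHrP, 381.8 in the R150C control array and 289.5 in R150C with PTHrP. Both R150C arrays lay above both WT arrays, a separation that the test itself favours. The share of all kept genes so separated was not counted. The difference was 1.15 in control medium and 0.63 under PTHrP, and 0.89 (SE 0.17) over both, with an adjusted p of 0.00699 by limma. A dimmer probe set of the gene read 82.1, 54.6, 110.5 and 76.7 in the same order and differed by 0.33 and 0.37, the same direction at a smaller size. With the mean of its probe sets Dnajb4 differed by 0.66 (limma adjusted p 0.0221).

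Bag3, which couples Hsp70 to small heat shock proteins and to autophagy of damaged proteins, read 196.3 and 281.8 in WT cells (control, PTHrP) and 380.6 and 430.9 in R150C cells. The lines did not overlap, which the test itself favours, and the share of all kept genes without overlap was not counted. The difference was 0.87 in control medium and 0.57 under PTHrP, with 0.72 (SE 0.15) over both and an adjusted p of 0.015 by limma. Dnajc21, a J-domain protein of the ribosome assembly pathway, read 84.5 and 82.6 in WT cells and 146.4 and 119.9 in R150C cells. It differed by 0.66 and 0.44, and by 0.55 (SE 0.15) over both media, with an adjusted p of 0.0439 by limma. That call was the weakest of the 5: it was lost with an intensity trend in the variance prior (adjusted p 0.0562) and with a pseudocount of 64 (0.0636), against 0.0141 to 0.254 over all its alternatives.

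Hspa1b, the stress-inducible Hsp70, read 481.1 and 511.2 in WT cells and 219.7 and 333.2 in R150C cells. Both R150C arrays lay below both WT arrays, which the test itself favours, and the share of all kept genes so separated was not counted. Hspa1b differed by -1.11 in control medium and -0.61 under PTHrP. Over both it differed by -0.86 (SE 0.17), with an adjusted p of 0.00807 by limma. The other Hspa1b probe sets pointed the same way: one read 343.7, 306.7, 154.7 and 177.1 and the other 334.7, 327.2, 203.0 and 242.8 (WT control, WT PTHrP, R150C control, R150C PTHrP). Hspa1a, its neighbour and near-identical copy, read 41.2, 32.1, 17.4 and 12.7, under the filter and likewise lower in both R150C arrays. Because the copies are so alike, signal of these probe sets cannot be split between Hspa1a and Hspa1b with certainty. Hspa1l, the next gene along, stayed at or under 1.8.

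Dnajc30, a J-domain protein of the mitochondrial inner membrane, read 135.0 and 210.7 in WT cells and 75.7 and 117.2 in R150C cells. The R150C values lay below the WT values in both media, by -0.75 and -0.79. The fitted difference was -0.77 (SE 0.15), with an adjusted p of 0.00793 by limma.

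To set sequence beside these values, the promoter windows of RefSeq (GRCm38.p6, 250 bases before to 50 after each start) were searched for 2 arrangements of paired GAA units, GAANNTTC (head-to-head) and TTCNNGAA (tail-to-tail). Each reads the same on both strands, and neighbouring matches of the arrangements can share a unit. Windows were given for 55 of the 67 members. The 4 stretches printed here belong to the members with the largest line differences, to the copy of one of them, or to a pair of genes that share 1 promoter region, with matches in capitals, 5′ to 3′ on the gene's strand.
Hspa1b, chr17:34959315-34959362, minus strand: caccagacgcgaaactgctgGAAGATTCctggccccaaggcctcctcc
Hspa1a, chr17:34972233-34972280, minus strand: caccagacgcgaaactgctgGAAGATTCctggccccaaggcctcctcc
Dnajb4, chr3:152193846-152193879, minus strand: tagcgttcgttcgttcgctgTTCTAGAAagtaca
Hspe1, chr1:55088039-55088096, plus strand: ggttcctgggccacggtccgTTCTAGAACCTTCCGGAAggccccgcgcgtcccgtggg

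The Hspa1a and Hspa1b stretches are the same letter for letter. Their match lies at -104 to -97 from the start, and that of Dnajb4 at -14 to -7. The Hspe1 stretch is also the Hspd1 stretch read on the other strand, since the genes of the mitochondrial chamber lie next to each other and point apart; in it 3 matches overlap into 1 longer run of alternating units. The head-to-head pair was found in 13 of 55 members (23.6%), beside 9.04% of all 27025 genes with a window. The tail-to-tail pair was found in 6 members (10.9%), beside 9.60%. A longer run, the head-to-head pair with one more GAA after the same spacing, on either strand, was also sought. It was found in 4 members (7.27%: Dnajb6, Hspd1, Hspe1 and Hsph1), beside 0.662%. These counts take Hspd1 and Hspe1, which share their matches, as separate members, and likewise the alike Hspa1a and Hspa1b. Bag3 and Hspb8 have their match after the start, at 42 to 49 and 2 to 9 bases past it. The longer run of Hsph1 also lies after the start, at 36 to 48 or 15 to 27 bases past its 2 annotated starts.

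**Figure D2:**
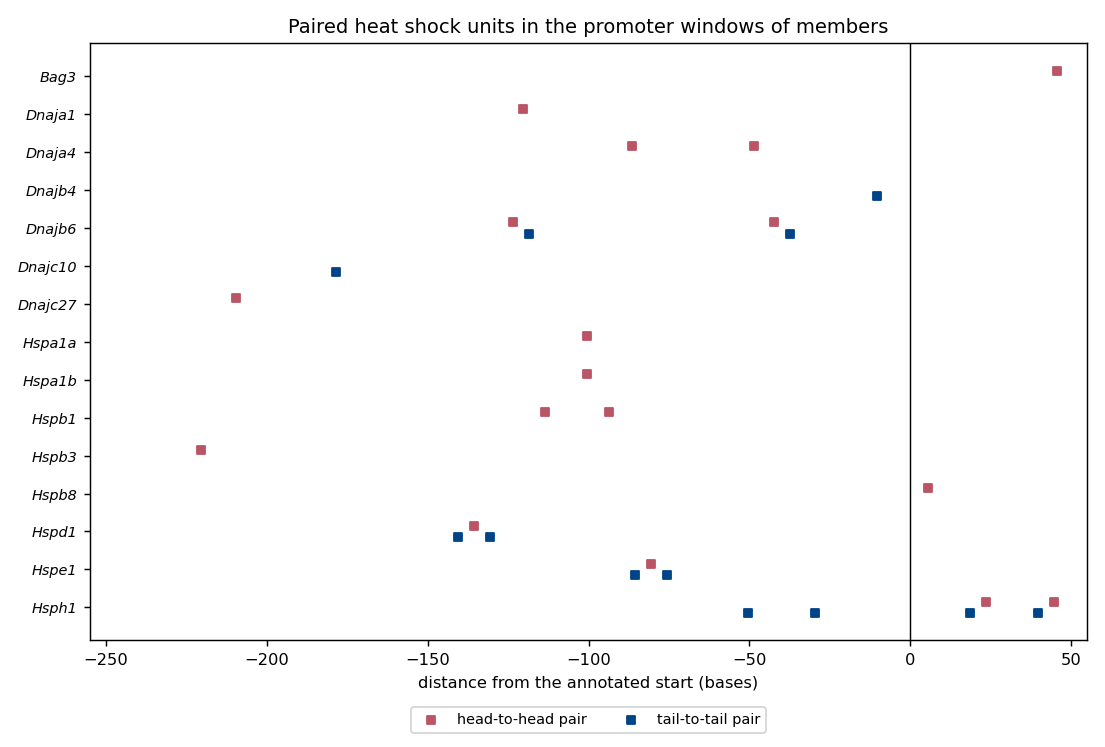
Positions of paired heat shock units in the promoter windows of the 15 members that hold any, as the distance in bases of a match's middle from the annotated start (0); red marks head-to-head pairs and blue tail-to-tail pairs. Dnajb6 and Hsph1 have 2 annotated starts each and show their matches from both; Hspd1 and Hspe1 show the same 3 matches from opposite sides.

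Members that hold these letters lay on both sides of 0. In the 9 kept members with the head-to-head pair, line differences ran from -0.86 (Hspa1b) to 0.72 (Bag3), with a median of 0.02; in the 30 kept members whose windows lacked it, they ran from -0.46 to 0.89 (Dnajb4), with a median of -0.05. Called were 2 of the 9 with the pair (Bag3 and Hspa1b) and 2 of the 30 without it (Dnajb4 and Dnajc21), beside 9.70% of all kept genes. Split on either arrangement, 3 of 11 kept members with a match were called, and 1 of 28 without. These small counts were not tested. Dnajb4 holds only the tail-to-tail pair, a search added after its values were seen. That search moved Dnajb4 to the side with a match, so the second split is no independent evidence. The share called among all kept genes with a match was not counted. Dnajc30 had no window here. The letters are a description of the window, and occupancy by a heat shock factor was not measured.

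Hsf2, the one heat shock factor on the list, read 0.8 and 0.3 in WT cells and 0.6 and 1.3 in R150C cells, so it could not be followed. Among the other Hsp70 proteins, Hspa8, the constitutive cytosolic form, read 4182.9 and 4149.9 in WT cells and 4223.7 and 3815.4 in R150C cells, a fitted difference of -0.08 (SE 0.15). Its probe sets did not go together: another read 991.5, 849.0, 1337.2 and 1489.1 (0.59) and a further one 3140.9, 3710.7, 2572.9 and 3119.9 (-0.29). Hspa5, the Hsp70 of the endoplasmic reticulum known as BiP, read 3425.0, 3675.0, 3546.6 and 3159.9, with a difference of -0.11. Over the 8 kept Hspa members of 11, the line differences ran from -0.86 to 0.10, and Hspa1b alone passed.

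Hsph1, an Hsp110 protein that acts as exchange factor of Hsp70, read 591.7 and 691.8 in WT cells against 538.3 and 511.6 in R150C cells, a difference of -0.30 (SE 0.15, limma adjusted p 0.243). A dimmer probe set gave 0.10. The cytosolic Hsp90aa1 read 2270.6, 2158.2, 2531.0 and 2561.2, with a difference of 0.17, and its other probe sets gave -0.12 and -0.01. Hsp90b1, the Hsp90 of the endoplasmic reticulum, read 1419.4, 1563.3, 1305.6 and 1595.0, with a difference of -0.07. None of these differences passed.

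The genes of the mitochondrial chamber did not pass. Hspd1, the barrel, read 2495.3 and 2666.2 in WT cells and 3030.5 and 2572.6 in R150C cells, and Hspe1, its lid, read 1726.3 and 1912.1 against 1665.0 and 1839.6. Their fitted differences were 0.09 and -0.08 (SE 0.15 each). Of the small heat shock proteins 3 of 6 were kept. Hspb1, which binds unfolded chains and actin, read 252.3, 319.9, 363.8 and 267.5, and Hspb8, the partner of Bag3, read 528.4, 569.9, 547.4 and 584.4. Hspb8 differed by 0.02, but its other probe sets gave -0.34 and -0.52.

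Among the Bag proteins, all 6 of which were kept, Bag2, an inhibitor of the ubiquitin ligase Stub1, read 181.0 and 224.1 in WT cells and 260.8 and 266.5 in R150C cells (0.34, limma adjusted p 0.195). Bag5 read 123.5 and 116.3 against 169.9 and 142.6 (0.31, limma adjusted p 0.219). The lines did not overlap for either gene, but the share of all kept genes without overlap was not counted. Bag6, which guides membrane proteins and misplaced proteins in the cytosol, had the opposite sign: 272.4 and 265.8 in WT cells against 177.5 and 222.1 (-0.44, limma adjusted p 0.113, and 0.0489 with the filter at the 75th percentile). Bag1, which ties Hsp70 to the proteasome, read 672.1, 846.8, 782.2 and 742.8 and differed by -0.01.

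J-domain proteins made up most of the list, with 26 kept members of 38. Of the Dnaja group, the general Hsp70 partners Dnaja1 (919.1, 907.7, 913.6 and 837.8) and Dnaja2 (385.3, 366.1, 432.4 and 415.5) differed by -0.09 and 0.14. Both gave nearly the same difference in their other probe sets, at -0.15 and 0.12. Of 7 kept Dnajb members Dnajb4 alone passed. Dnajb1, the main stress-inducible Hsp40, read 451.2 and 320.6 in WT cells and 506.6 and 383.9 in R150C cells (0.18), while its other probe set read 296.6, 357.9, 530.1 and 471.2 (0.57). Dnajb2, a J-domain protein with ubiquitin-binding motifs, read 151.9 and 176.6 against 131.8 and 104.0 (-0.46, limma adjusted p 0.113). Dnajb6, a suppressor of protein aggregation, read 687.6, 771.1, 858.9 and 713.2 (0.08), and the endoplasmic reticulum member Dnajb11 read 597.7, 711.4, 597.8 and 580.2 (-0.17).

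The Dnajc group had 16 kept members of 22, with differences from -0.77 to 0.55 and calls for Dnajc30 and Dnajc21. Dnajc11, a J-domain protein linked to mitochondrial cristae, read 186.7 and 183.7 in WT cells and 149.7 and 129.6 in R150C cells (-0.40, limma adjusted p 0.126), but -0.10 as the mean of its probe sets. Dnajc8, found with splicing factors, read 1200.6 and 1306.5 against 1018.8 and 1083.9 (-0.28), and Dnajc10, a disulfide reductase of the endoplasmic reticulum, read 664.6, 592.2, 609.2 and 613.2 (-0.06). Dnajc3, the p58IPK inhibitor of the unfolded protein response kinases, was near 0 in its brightest probe set (-0.05), while others above the filter gave 0.58 and 0.46; this gene is outside the naming rule and was picked after its values were seen.

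**Figure D3:**
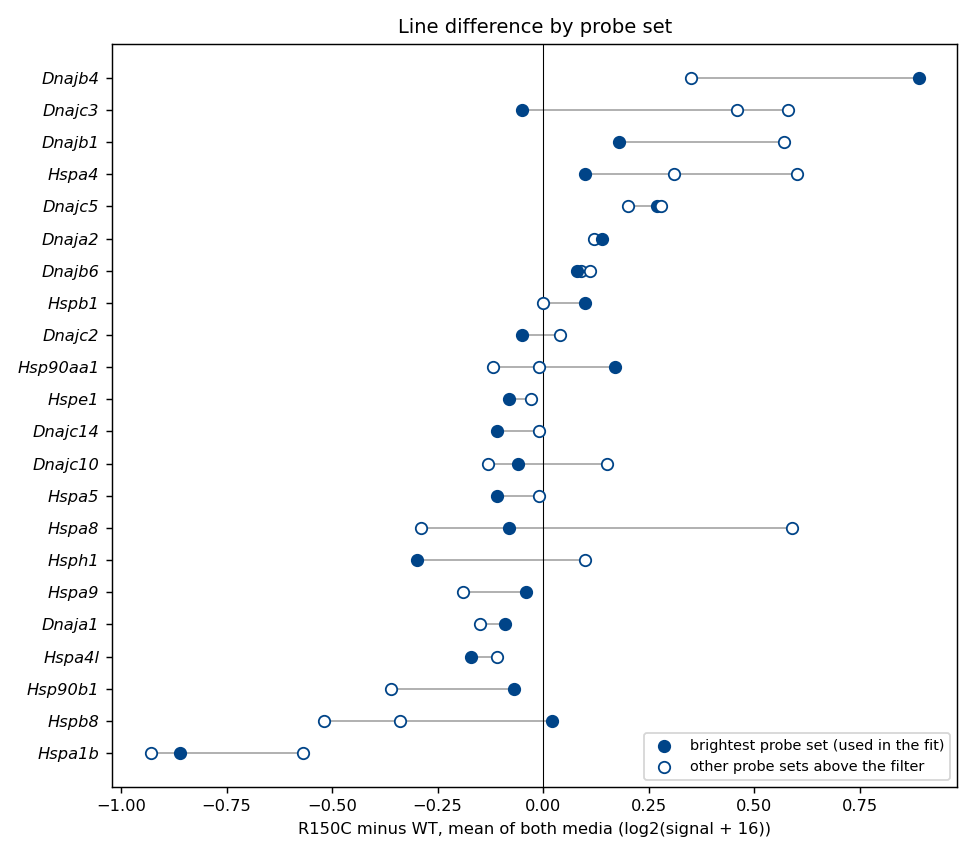
Line difference, R150C minus WT, as the mean of both media on the log2(signal + 16) scale, for the 22 members with at least 2 probe sets above the filter; the filled point is the brightest probe set and open points are the others. Hspa1b lies below 0 in all 3 probe sets (-0.57 to -0.93), whereas Hspa8 spans -0.29 to 0.59 and Dnajc3 -0.05 to 0.58.

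Of these 22 members, 14 had the same sign of the fitted line difference in all probe sets above the filter, and the median range within a gene was 0.22. Bag3, Dnajc21 and Dnajc30 each have 1 probe set, so their calls could not be checked in this way. The 19 members under the filter read between 0.3 and 76.5, with medians of 32.3 and 28.5 in WT cells and 19.9 and 19.9 in R150C cells. They include the muscle-type small heat shock proteins Hspb2, Hspb3 and Hspb7.

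At 2-fold, 2 kept members differed between the lines in control medium, Dnajb4 and Hspa1b (4.17%, beside 3.0% of all kept genes), and 0 under PTHrP (beside 2.89%). These counts moved with the processing: with centring on all probe sets Dnajb4 alone reached 2-fold in control medium, and averaging all probe sets of a gene left neither. The line difference had the same sign in both media, which share no array, for 29 of 48 members (60.4%), beside 68.3% of all kept genes.

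**Figure D4:**
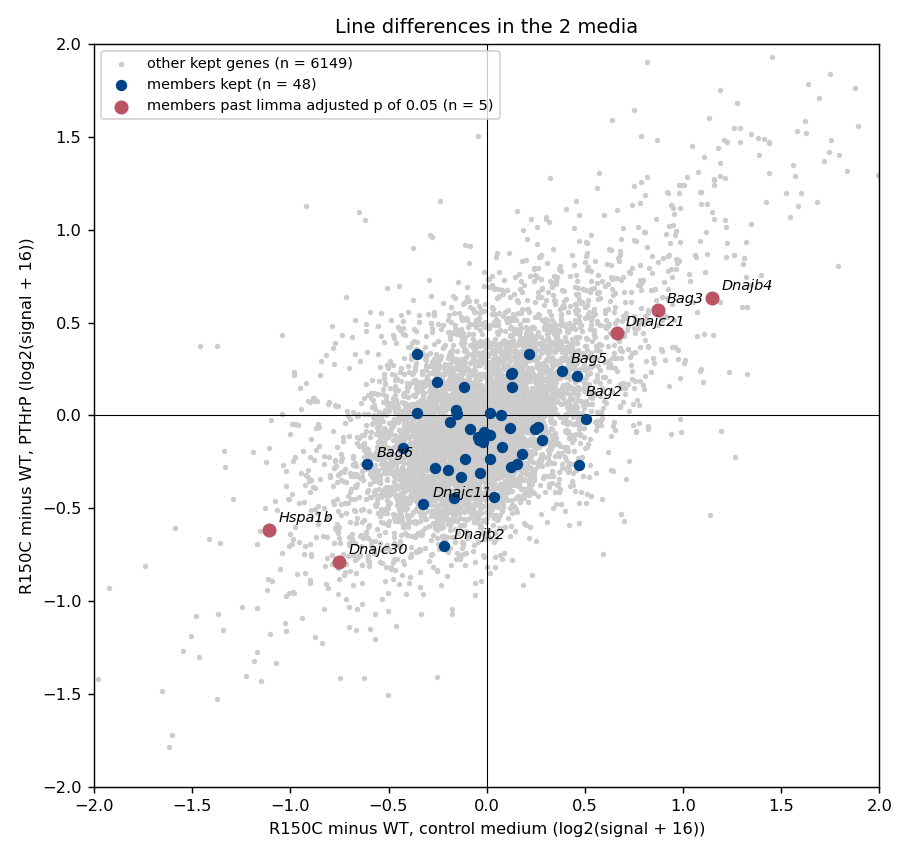
Difference between the lines in control medium (x) and under PTHrP (y), R150C minus WT on the log2(signal + 16) scale, 1 point per kept gene; members are blue, the 5 that passed limma are red, other genes grey, and 33 other genes lie outside the axes. Dnajb4, Bag3 and Dnajc21 lie up in both media and Hspa1b and Dnajc30 down, with the remaining members around the centre.

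The PTHrP comparison asked what 1 h of ligand does to these transcripts through each receptor. No member passed. limma called 0 of 48 members and 0 of 6197 kept genes (0.00%) over both lines, and 2 members had an unadjusted p under 0.05, Dnajc30 and Dnajb1, beside 5.57% of all kept genes. On the scale used here, no kept member reached 1.5-fold in either line by its brightest probe set. The share of all kept genes that did was 3.73% in WT cells and 1.84% in R150C cells. Dnajc30 came nearest in WT cells (1.48-fold), and Hspa1b (1.47-fold) and Dnajc30 (1.44-fold) in R150C cells. Dimmer probe sets of some members passed 1.5-fold, among them those of Dnajb6 and Hsp90b1 in WT cells and of Hspb1 in R150C cells. In WT cells Dnajc30 passed 1.5-fold without centring, with quantile normalization, a pseudocount of 1, averaged probe sets or centring on all probe sets. It did not with a pseudocount of 64 or without the filter. In R150C cells Dnajc30 and Hspa1b passed with a pseudocount of 1 or centring on all probe sets. The count in WT cells was 4 with each array centred on all probe sets, a setting that moves the median of all kept genes there from 0.03 to 0.22 and under which limma called 25 kept genes over both lines, 0 of them members. The median of the members was 0.08 in WT cells and -0.06 in R150C cells, beside 0.03 and -0.01.

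Dnajc30 had the largest difference in WT cells, 0.57, and 0.53 in R150C cells; its limma adjusted p over both lines was 0.564 (unadjusted 0.00351). Dnajb1 was at -0.49 and -0.39 (limma adjusted p 0.779), but its other probe set was at 0.24 and -0.17. Hspa1b was at 0.07 in WT cells and 0.56 in R150C cells. Bag3 was at 0.47 and 0.16, and Dnajb4 at 0.13 and -0.39.

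Dnajc4 and Dnajb12 were, with Bag3, Dnajb1 and Dnajc30, the members with the largest PTHrP differences in WT cells. Dnajc4 read 93.4 and 135.8 in WT cells (0.45) and 98.9 and 97.6 in R150C cells (-0.02). Dnajb12, a J-domain protein of the endoplasmic reticulum membrane, read 118.9 and 166.1 (0.41) and 179.9 and 166.1 (-0.11). The difference had the same sign in both lines for 23 of 48 members (47.9%), beside 51.1% of all kept genes.

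**Figure D5:**
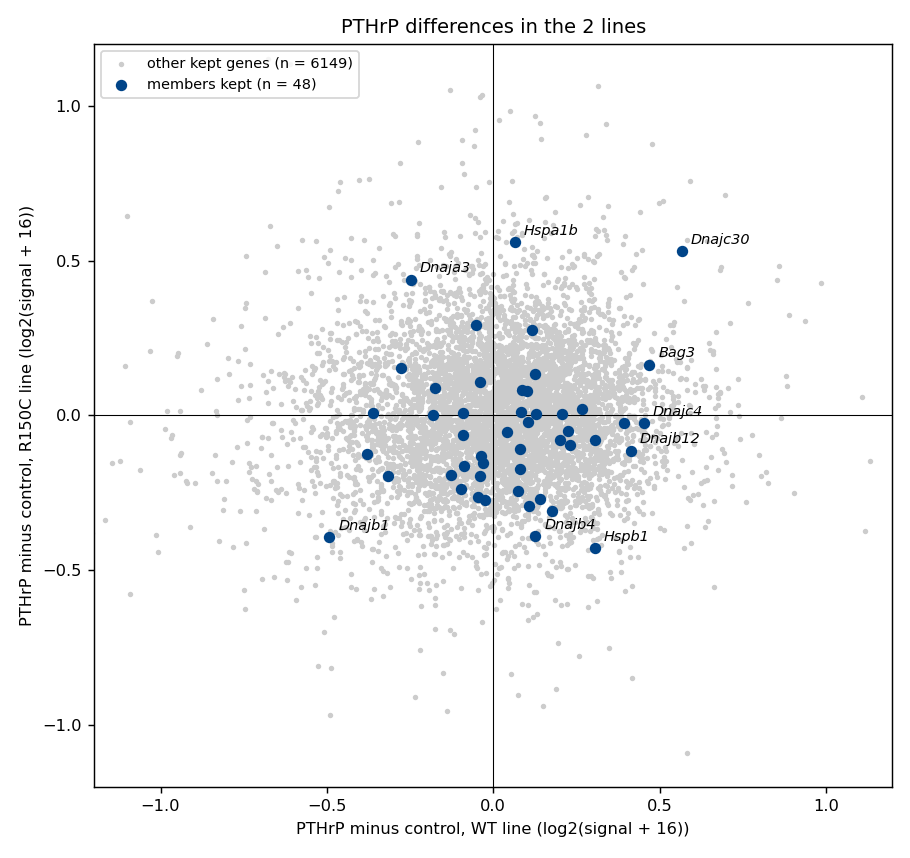
Difference between PTHrP and control in WT cells (x) and in R150C cells (y), on the log2(signal + 16) scale, 1 point per kept gene; members are blue, other genes grey, and 11 other genes lie outside the axes. No member lies past 1.5-fold (0.58) in either line by its brightest probe set, the one plotted. Dnajc30 (0.57 and 0.53) and Dnajb1 (-0.49 and -0.39) are the members farthest out in the same direction in both.

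The probe sets of a member seldom gave one direction for PTHrP in WT cells: 4 of the 22 members with several probe sets above the filter had the same sign in all, with a median range of 0.44 within a gene, against 11 of 22 and 0.22 in R150C cells. These counts, like that for the line difference, were made for members only, so they do not set the members apart from other genes. In Hsp90b1 a probe set read 1527.2 and 769.6 in WT cells (-0.99) where the brightest read 1419.4 and 1563.3 (0.12). Dnajb6 stood at 0.14 in WT cells by its brightest probe set, and its others above the filter stood at -1.21 and 0.61. In Hsp90aa1 the dimmer probe sets were at -0.50 and -0.46 in WT cells where the brightest was at -0.09. Gapdh control probe sets at the 3' and 5' ends of the transcript, whose ratio follows RNA integrity and labelling, stood at a ratio of 0.845 in WT control, 1.17 in WT with PTHrP, 0.991 in R150C control and 1.21 in R150C with PTHrP. It was higher in both PTHrP arrays, and its part in the PTHrP differences was not tested.

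Partners of these proteins were followed in 5 lists. Of 15 kept co-chaperones of Hsp90 and Hsp70, none passed between the lines, with a median difference of -0.05: Cdc37, which loads kinases onto Hsp90, read 1159.9, 1455.2, 1301.3 and 1373.0 (0.01), and Stub1, the ubiquitin ligase of chaperone clients, read 1010.4, 1060.6, 847.4 and 907.8 (-0.26). Of 13 kept genes of the CCT chaperonin and prefoldin, which fold actin and tubulin, none passed either, with a median of -0.06. Cct6a, a CCT subunit, read 2971.1 and 3642.8 in WT cells and 2266.0 and 2427.0 in R150C cells (-0.51, limma adjusted p 0.057). It passed in 4 alternatives, with adjusted p by limma from 0.0168 to 0.667 over all of them, and stood at -0.13 as the mean of its probe sets; Cct2 read 2910.0, 2580.6, 3231.7 and 3069.0 (0.17). Of 13 kept mitochondrial folding and import genes none passed, with a median of 0.00; the import receptor Tomm20 read 2289.9, 2537.8, 2239.9 and 2534.2 (-0.04) and the import channel gene Timm23 1364.4, 1693.2, 1603.7 and 1509.6 (0.01).

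Of 20 kept folding genes of the endoplasmic reticulum, 2 were lower in R150C cells and none higher, near the 9.70% of all kept genes called in either direction, with a median of -0.14 beside -0.06 for all kept genes. Herpud1, which serves degradation of misfolded proteins there, read 289.4 and 391.2 in WT cells and 139.6 and 197.1 in R150C cells (-0.98, SE 0.15, limma adjusted p 0.0019). Ddit3, the stress transcription factor CHOP, read 466.5 and 437.7 against 332.7 and 294.3 (-0.53, SE 0.15, limma adjusted p 0.0453), a call lost with centring on all probe sets (0.0835) and in 5 of its 9 alternatives (0.0122 to 0.251). The chaperone Calr (3512.0, 4465.0, 3800.3 and 3449.4) and the disulfide isomerase P4hb (3423.3, 4188.3, 3280.8 and 3092.3) did not pass, at -0.15 and -0.27.

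Of 12 kept genes on the list of other Hsf1 and protein stress targets, 3 were higher and 3 lower, beside 5.52% and 4.18% of all kept genes, with a median of 0.01. The list also holds the cold-induced Cirbp, so its counts and median do not describe Hsf1 targets alone. This list, like the others, was drawn up with earlier results of these arrays known, so its count is no independent evidence. Ier5, an early gene that activates Hsf1, read 351.6 and 366.2 in WT cells and 966.0 and 1008.2 in R150C cells (1.39, limma adjusted p 0.000172). Gadd45b, a growth arrest gene, read 335.9 and 266.5 against 787.9 and 674.7 (1.21, limma adjusted p 0.000439), and the stress transcription factor Atf3 read 51.8 and 51.6 against 115.6 and 101.4 (0.85, limma adjusted p 0.00481, and 0.55 with a pseudocount of 64). The metal-binding metallothioneins were lower: Mt1 read 1907.7 and 2378.1 against 920.3 and 947.7 (-1.20, limma adjusted p 0.000591, and -0.67 at 0.0219 as the mean of its probe sets), and Mt2 1997.6 and 2161.8 against 864.1 and 818.4 (-1.32, limma adjusted p 0.000286). The cold-induced RNA-binding protein gene Cirbp read 153.8 and 140.4 against 81.7 and 60.9 (-0.94, limma adjusted p 0.0029). Serpinh1, the collagen chaperone Hsp47, read 1819.7, 1841.1, 1982.9 and 1682.0 and differed by -0.03, and Sqstm1, the autophagy receptor p62, read 1923.2, 2069.5, 1626.0 and 1583.2 (-0.34); neither passed. For each of the 6 called genes both R150C arrays lay on one side of both WT arrays. The test itself favours such genes, so this separation adds no support to the calls. No gene of the 5 lists passed for PTHrP.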

How the data were processed

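The table deposited by the authors holds an intensity for each probe set; the submitters' processing notes name Affymetrix Expression Console, and its version, its summarisation method and the build were not given in the sources used here. Equal trimmed means of 150.1 show a global scaling. Of 22690 probe sets, 64 are controls, 20380 had 1 symbol in the platform annotation, 691 several and 1555 none. From these values log2(signal + 16) was computed, centred per array on the 6197 kept genes, since centring on all probe sets left a shift of 0.22 in the kept genes. limma 3.58.1 (R 4.3.3) fitted receptor and treatment; its prior had 9.7 degrees of freedom. The fit was tested on simulated data with the same noise for every probe set, which does not measure its error rate in these arrays. Single contrasts have no test and are counted at 2-fold (lines) or 1.5-fold (PTHrP).

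Members and lists were chosen with earlier results of these data known. Named members (31) are those called, the 10 largest line differences, the 5 largest PTHrP differences in each line and the 2 brightest of each role group; of the lists, called genes and the 2 brightest. TTCNNGAA, the longer run and the Hspa1a and Hspe1 stretches were added after the data were seen. Entries were matched by symbol: 67 of 67 members in the mouse gene table, 55 with a promoter window. Alternatives were other scalings, pseudocounts (1, 64), filters, the mean of all probe sets and an intensity trend.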

Additional observations from a re-analysis of the deposited data

Results flagged for a closer look

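PTHrP differences of opposite sign in the lines, each at or beyond the array spread of 0.25, were found in 2 members. The share of all kept genes past this mark was not counted. Opposite signs were common, since only 51.1% of all kept genes had the same sign in both lines. Hspb1 stood at 0.30 in WT cells and -0.43 in R150C cells, and its dimmer probe set at 0.44 and -0.92. Dnaja3, a mitochondrial J-domain protein, read 107.1 and 89.1 in WT cells (-0.25) and 82.5 and 118.3 in R150C cells (0.44), but its dimmer probe sets, both under the filter, had 1 sign in both lines, at -0.85 and -0.47 for one and -0.21 and -0.78 for the other. With 1 array per group the difference between the lines was not tested.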

How the results depend on the processing

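The 5 line calls, Bag3, Dnajb4, Dnajc21, Dnajc30 and Hspa1b, were kept under all 4 scalings, with a pseudocount of 1 and on averaging all probe sets of a gene. A pseudocount of 64 or an intensity trend left 4, without Dnajc21. The filter at the 75th percentile also gave 4, Bag3, Bag6, Dnajb4 and Hspa1b; it removes Dnajc21 and Dnajc30 before the test. Without the filter limma called 0 members and 0 list genes, against 5 and 8, with 10 members (14.9%) at an unadjusted p under 0.05 beside 14.4% of all genes; that setting tests 12393 genes in place of 6197. At 2-fold in control medium, 2 members became 1 with centring on all probe sets, and 0 with a pseudocount of 64 or the averaged probe sets; without the filter Dnajc17 made a count of 3. At 1.5-fold for PTHrP, the 0 members of the WT line became 4 with centring on all probe sets, 3 without the filter, 2 with averaged probe sets, and 1 without centring, with quantile normalization or with a pseudocount of 1. In the R150C line the 0 became 2 with centring on all probe sets or a pseudocount of 1, and 1 with averaged probe sets. The cause was not tested. The median PTHrP difference of the members in WT cells, 0.08, ran from 0.01 with averaged probe sets to 0.27 with centring on all probe sets, and their median line difference, -0.05, from -0.06 to 0.01. No called gene turned its sign. For PTHrP, limma called 25 kept genes with centring on all probe sets and 1 without centring, 0 of them members. No paired analysis was possible because each group has 1 array, and no array could be left out without losing a group. Dim signals limit the 19 members under the filter.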
